A study of Mus with 10 samples.

Results

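The genes described here were the 10 of the IL-18 and IL-1 receptor family and its first signalling steps, namely Il18r1, Il18rap, Il1rl1, Il1r1, Il1rap, Sigirr, Myd88, Irak1, Irak2 and Irak4. They were chosen by name and with earlier results of these data known. All 10 were found among the 24564 genes of the deposited count table. Of these 10, 8 were among the 11463 genes with enough counts to test. The libraries came from type 1 innate lymphoid cells (ILC1s), tissue-resident lymphocytes related to natural killer (NK) cells, sorted from the liver of untreated C57BL/6 mice, which the methods give as male or female and 6 to 8 weeks old. The groups were 5 libraries from Ncr1+/+ mice, which are wild type, and 5 from Ncr1gfp/gfp mice. In the latter, gfp takes the place of Ncr1, the gene of the activating receptor NKp46. Of these genotypes the methods name a supplier for the Ncr1+/+ mice only. The study's reporting summary gives both genotypes as bought from a supplier, and it gives a wider age range. Cells of both genotypes were gated as NK1.1+ CD49a+ CD49b- without lineage markers, but Ncr1+/+ cells were also gated by an antibody against NKp46 and Ncr1gfp/gfp cells by GFP, so that the gate and the genotype cannot be told apart. The labels do not say whether a library held the cells of a single mouse or of a pool, so the p-values measure the spread between these libraries, which may in part be technical.

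Receptors of this family carry a TIR domain inside the cell and work in pairs, a chain that binds the cytokine and an accessory chain that completes the signalling complex. IL-18 binds IL-18Rα, encoded by Il18r1, which then pairs with the accessory chain encoded by Il18rap. The adaptor MyD88 joins the paired TIR domains and recruits kinases of the IRAK family, from which the signal runs through TRAF6 and TAK1 to NF-κB and to the p38 and JNK kinases. In NK cells and ILC1s, IL-18 together with IL-12 is a known inducer of interferon-γ.

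The total count was between 15796253 and 22623133 per library, with a median of 19900426 in Ncr1+/+ ILC1s and of 16854526 in Ncr1gfp/gfp ILC1s. At these depths, 3 counts corresponded to 0.132 to 0.190 CPM (counts relative to the library size after TMM normalization). Ncr1, the targeted gene, was at 1913 to 2144 CPM in the Ncr1+/+ libraries and at 141 to 356 CPM in the Ncr1gfp/gfp libraries, so the labels and the counts went the same way, and reads on Ncr1 were present in every Ncr1gfp/gfp library. ILC1 markers were high in every library, with Itga1, the gene of CD49a, at 732 to 805 CPM in Ncr1+/+ and 928 to 1012 CPM in Ncr1gfp/gfp libraries and Tbx21, the gene of the transcription factor T-bet, at 387 to 491 CPM. Eomes, the NK cell transcription factor, was at 5.85 to 8.35 CPM in Ncr1+/+ and at 5.06 to 17.7 CPM in Ncr1gfp/gfp libraries. Ncr1+/+ replicate 1 and Ncr1gfp/gfp replicate 3 held more hepatocyte transcripts than the others, at a summed 36.6 and 74.5 CPM over 10 marker genes.

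The first question was which parts of the receptor family differed in ILC1s that lack a functional Ncr1 gene. Both chains of the IL-18 receptor were lower in Ncr1gfp/gfp ILC1s, with the binding chain Il18r1 at 46.8% and the accessory chain Il18rap at 65.9% of the Ncr1+/+ mean. The other 6 tested genes, which encode the accessory chain shared by the other receptors, the inhibitory receptor, the adaptor and the kinases, differed by no more than the spread between libraries. Thus 2 of the 8 tested genes were called, at a Benjamini-Hochberg adjusted p under 0.05 over all genes and a fold change above 1.5 or below 0.7, and both were lower. Over all 11463 genes tested, 0.733% were called, 0.532% lower and 0.201% higher. In the same 2 genes the ranges of the genotypes did not overlap, against 3.11% of all tested genes, or 1.82% in the lower direction. The genes were chosen with earlier results of these data known, and the study had already reported Il18r1 as lower. These shares therefore describe the chosen genes and are no test of the family. The median log2 fold change of the 8 tested genes was -0.07, beside 0.00 over all tested genes. In bulk samples like these, fewer cells that carry a transcript and less of that transcript per cell cannot be told apart.

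**Figure D1:**
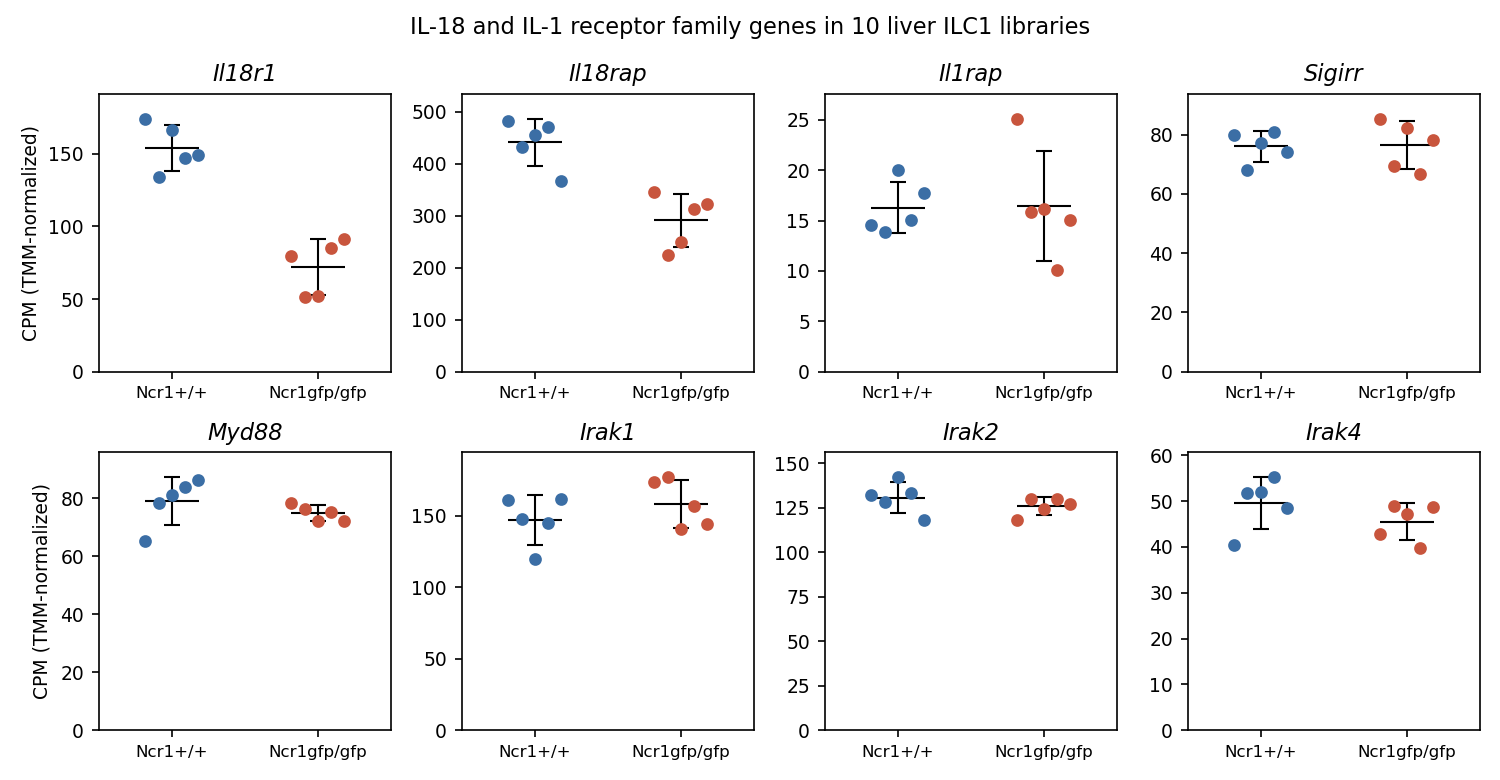
TMM-normalized CPM (vertical axes, each starting at 0) of the 8 tested genes in 5 Ncr1+/+ libraries (blue) and 5 Ncr1gfp/gfp libraries (red). Points are libraries in the order of replicates 1 to 5, and black bars are the mean and SD. The ranges of the genotypes are separate for Il18r1 and Il18rap and overlap for the other 6 genes.

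Il18r1 encodes the chain that binds IL-18. The 5 Ncr1+/+ libraries, in order of replicate, held 174, 134, 166, 147 and 149 CPM, with a mean of 154 ± 15.8 (SD, n = 5). The 5 Ncr1gfp/gfp libraries held 79.9, 51.5, 51.9, 85.4 and 91.3 CPM, with a mean of 72.0 ± 19.0 (SD, n = 5). The highest Ncr1gfp/gfp library was below the lowest Ncr1+/+ library, and Ncr1gfp/gfp replicates 2 and 3 were the lowest of all 10. The log2 fold change was -1.10 (SE 0.13, 95% interval -1.37 to -0.82) with an adjusted p of 5.59e-05 by the quasi-likelihood test in edgeR, adjusted over all genes by Benjamini-Hochberg. By its p-value Il18r1 was in place 10 of the 11463 genes.

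Il18rap encodes the accessory chain, without which IL-18 binding does not signal. In order of replicate, the Ncr1+/+ libraries held 482, 432, 455, 471 and 368 CPM, with a mean of 442 ± 45.3 (SD, n = 5). The Ncr1gfp/gfp libraries held 345, 225, 249.8, 313 and 323 CPM, with a mean of 291 ± 51.3 (SD, n = 5). The ranges again did not overlap, although Ncr1+/+ replicate 5 and Ncr1gfp/gfp replicate 1 came close, and Ncr1gfp/gfp replicates 2 and 3 were the lowest for this chain too. The log2 fold change was -0.60 (SE 0.10, 95% interval -0.80 to -0.40) with an adjusted p of 0.00145 by edgeR's quasi-likelihood test, and Il18rap was in place 27 by its p-value. On the linear scale the fold change was 0.659, with an interval from 0.574 to 0.757 that includes the fold threshold of 0.7.

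The chains did not fall by the same amount. The CPM of Il18r1 as a share of that of Il18rap was 36.1%, 31.0%, 36.4%, 31.3% and 40.4% over the Ncr1+/+ libraries in order of replicate. Over the Ncr1gfp/gfp libraries this share was 23.2%, 22.9%, 20.8%, 27.2% and 28.2%. Every Ncr1gfp/gfp library had a lower ratio than every Ncr1+/+ library, with means of 24.5% ± 3.14 and 35.0% ± 3.92 (SD, n = 5 each). The mean log2 ratio differed by -0.52 (SE 0.11) between the genotypes, with p = 0.00794 by a two-sided exact permutation test, the smallest that 5 against 5 libraries can give. Per kilobase of exon the ratio was 25.0% ± 3.21 in Ncr1gfp/gfp and 35.8% ± 4.01 in Ncr1+/+ libraries (SD, n = 5 each), so the accessory chain transcript was the more abundant in both genotypes.

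**Figure D2:**
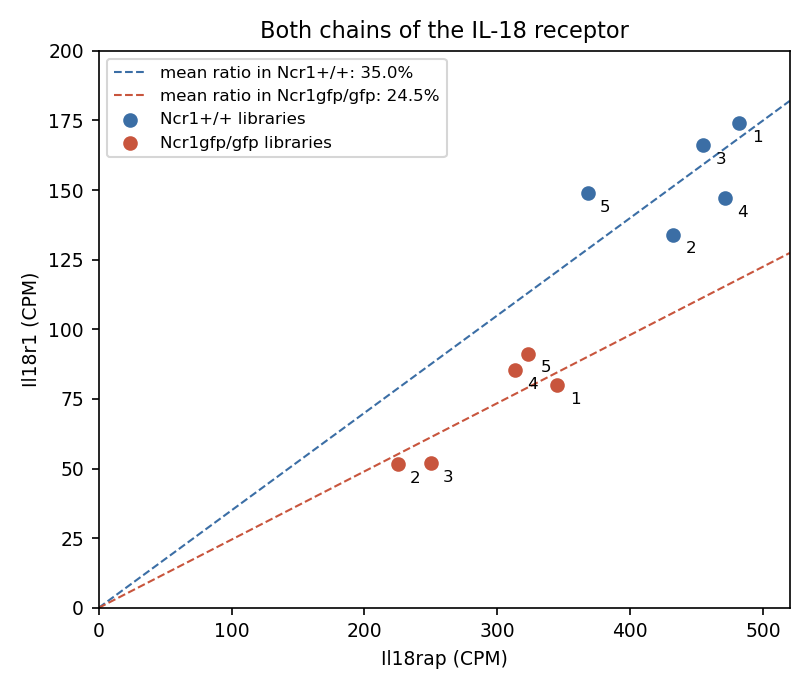
CPM of Il18rap (horizontal axis) against CPM of Il18r1 (vertical axis) in each library, numbered by replicate, with Ncr1+/+ in blue and Ncr1gfp/gfp in red. Dashed lines give the mean ratio of each genotype, 35.0% and 24.5%, and all 5 red points lie below the blue line and to the lower left of the blue points.

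The other cytokine-binding chains were hardly measured. Il1rl1, which encodes the IL-33 receptor ST2 that marks type 2 innate lymphoid cells (ILC2s) and mast cells, had 7 counts, all of them in Ncr1+/+ replicate 3 at 0.350 CPM, and was at 0 in the other 9 libraries. Il1r1, which encodes the receptor that binds IL-1α and IL-1β, had 30 counts, 13 in Ncr1+/+ and 17 in Ncr1gfp/gfp libraries, and was at 0 in 4 libraries. Its highest library was Ncr1gfp/gfp replicate 2 with 15 counts, or 0.686 CPM. Neither gene passed the filter on low counts, and a difference between the genotypes was not detectable at this depth. Of the 10 ILC2 markers 2 were at 0 in every library, Il5 and Hs3st1, while Gata3 and Rora, which ILC1s can also express, were at means of 171 and 106 CPM in Ncr1+/+ libraries. Of the 9 mast cell and basophil markers 4 were at 0 in every library, Fcer1a, Ms4a2, Mcpt4 and Tpsb2, while Cd200r3 was at a mean of 7.20 CPM in Ncr1+/+ libraries and Cpa3 and Mcpt8 had 63 and 17 counts in all.

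Il1rap encodes the accessory chain that IL-1R1, ST2 and the IL-36 receptor share. Ncr1+/+ libraries held 14.6, 13.9, 20.0, 15.1 and 17.7 CPM of it, and Ncr1gfp/gfp libraries held 25.1, 15.8, 16.1, 10.1 and 15.1 CPM, each in order of replicate. The highest and the lowest of the 10 libraries were both Ncr1gfp/gfp, and the log2 fold change was 0.02 (SE 0.18, 95% interval -0.36 to 0.39) with an adjusted p of 0.987 by edgeR's quasi-likelihood test. Its sign turned under limma-voom (-0.10), and its interval was the widest of the 8 genes. Sigirr encodes a receptor of the family that dampens IL-1 and IL-18 signalling. It was at 66.7 to 85.3 CPM over all 10 libraries, with a mean of 76.1 ± 5.28 in Ncr1+/+ and 76.4 ± 8.07 in Ncr1gfp/gfp libraries (SD, n = 5 each). The log2 fold change of Sigirr was 0.01 (95% interval -0.16 to 0.18), a value whose sign turned when single libraries were left out.

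Myd88 encodes the adaptor on which every signalling receptor of the family depends. The Ncr1+/+ libraries, by replicate, held 65.2, 78.3, 81.2, 83.7 and 86.4 CPM, and the Ncr1gfp/gfp libraries 78.4, 76.2, 72.2, 75.1 and 72.1 CPM. All 5 Ncr1gfp/gfp libraries lay within the Ncr1+/+ range, and the log2 fold change was -0.08 (SE 0.08, 95% interval -0.24 to 0.08) with an adjusted p of 0.796 by edgeR's quasi-likelihood test.

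Of the kinases, Irak4 encodes the one that MyD88 recruits first, Irak1 a kinase that IRAK4 activates, and Irak2 a relative that sustains the signal. Irak4 was at 49.5 ± 5.61 CPM in Ncr1+/+ and at 45.5 ± 4.08 CPM in Ncr1gfp/gfp libraries (SD, n = 5 each), with a log2 fold change of -0.12 (95% interval -0.32 to 0.08). Irak1 was at 119.5 to 162 CPM in Ncr1+/+ and at 140.5 to 177 CPM in Ncr1gfp/gfp libraries, with a log2 fold change of 0.11 (95% interval -0.07 to 0.28). Irak2 was at 118 to 142 CPM in Ncr1+/+ and at 118 to 130.0 CPM in Ncr1gfp/gfp libraries, with a log2 fold change of -0.06 (95% interval -0.19 to 0.07). The genotypes overlapped for all 3 kinases, and their adjusted p-values were at least 0.710 by edgeR's quasi-likelihood test.

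For the 6 tested genes that were not called, the log2 fold change was between -0.12 and 0.11. Their 95% intervals together spanned fold changes from 0.777 to 1.31. None of these intervals reached the fold changes fitted for Il18r1 (0.467) or Il18rap (0.659). A difference smaller than these intervals was not detectable here.

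**Figure D3:**
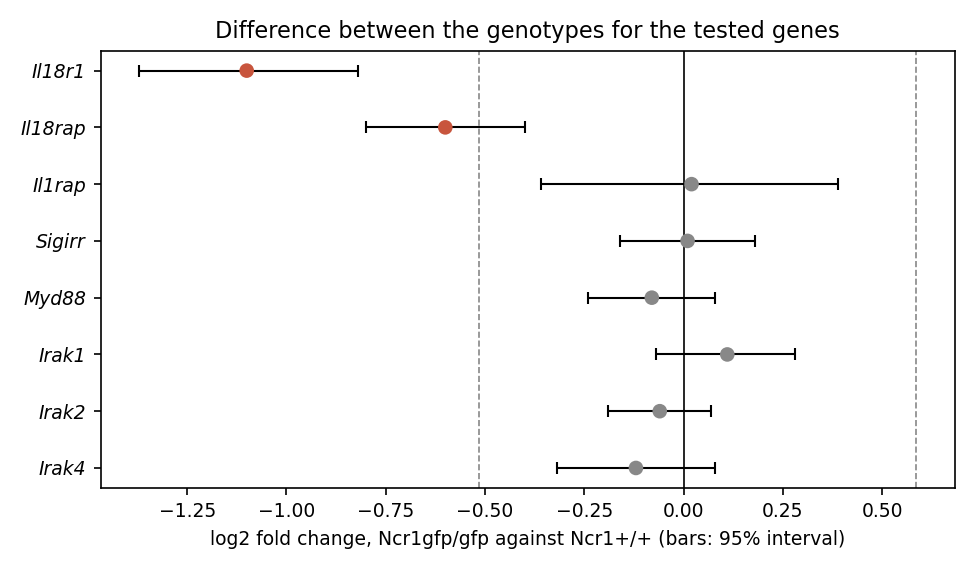
Log2 fold change of Ncr1gfp/gfp against Ncr1+/+ ILC1s (horizontal axis) for each of the 8 tested genes, with 95% intervals from edgeR's quasi-likelihood fit. Red points are the called genes, grey points the others, and dashed lines the fold thresholds of 0.7 and 1.5. Il18r1 at -1.10 and Il18rap at -0.60 stand to the left of the other 6, which lie between -0.12 and 0.11.

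Levels of different genes were compared per kilobase of the exon length in the table (RPKM). In Ncr1+/+ ILC1s Il18rap was highest at 90.4 ± 9.27 RPKM (SD, n = 5), and its range lay above that of every other gene of the family. Myd88 at 41.5 ± 4.35, Irak2 at 40.9 ± 2.68, Sigirr at 38.2 ± 2.65, Irak1 at 37.2 ± 4.32 and Il18r1 at 32.2 ± 3.31 RPKM followed, and each overlapped the next in its range over libraries. Below them were Irak4 at 17.5 ± 1.99 and Il1rap at 1.47 ± 0.228 RPKM, both separate from their neighbours, and then Il1r1 and Il1rl1 close to 0.

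In Ncr1gfp/gfp ILC1s Il18rap was still highest, at 59.6 ± 10.5 RPKM (SD, n = 5), followed by Irak1, Irak2, Myd88 and Sigirr between 40.1 and 38.4 RPKM with overlapping ranges. Il18r1 stood at 15.1 ± 3.97 RPKM, below Irak4 at 16.1 ± 1.44, and the ranges of this pair overlapped. Il18r1 was thus among the adaptor and kinase genes in its level per kilobase in Ncr1+/+ ILC1s and next to Irak4 in Ncr1gfp/gfp ILC1s. The exon length of Il1rap, 11099 bases, is the longest of the 10 and covers every exon in the table, which lowers its level per kilobase where a shorter form is made.

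The position of the genes was examined next, because 4 of the 10 are neighbours on chromosome 1 while the other 6 are on 6 other chromosomes. The table does not name its genome build, and its positions differ from those of mm10, the build that the methods name. It lists Il18r1 at 40522397 to 40557699 of chromosome 1 (plus strand) and Il18rap on the same strand at 40572207 to 40608550, 14.5 kb downstream. Il1rl1 ends 137 bases before the start of Il18r1, and Il1rl2, Il1r1 and Il1r2 lie further upstream. Sigirr is on chromosome 7, which also holds Ncr1, at a distance of 144 Mb from it.

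Of the 12 genes within 500 kb of Il18r1, 5 were tested, and the only genes called were Il18r1 and Il18rap. Il1rl2, which encodes the IL-36 receptor, had means of 4.73 ± 1.20 CPM in Ncr1+/+ and 3.83 ± 1.33 CPM in Ncr1gfp/gfp libraries (SD, n = 5 each), with a log2 fold change of -0.31 (95% interval -0.93 to 0.32). Il1r2, the decoy receptor of IL-1, had 5 counts in all. The nearest genes outside the family were Gm16894, with 11 counts, and Slc9a4, with none. The other tested genes of this window, named here after their values were seen, were Map4k4, with a log2 fold change of -0.07 (95% interval -0.20 to 0.06), and Mfsd9, with 0.29 (95% interval -0.27 to 0.85).

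**Figure D4:**
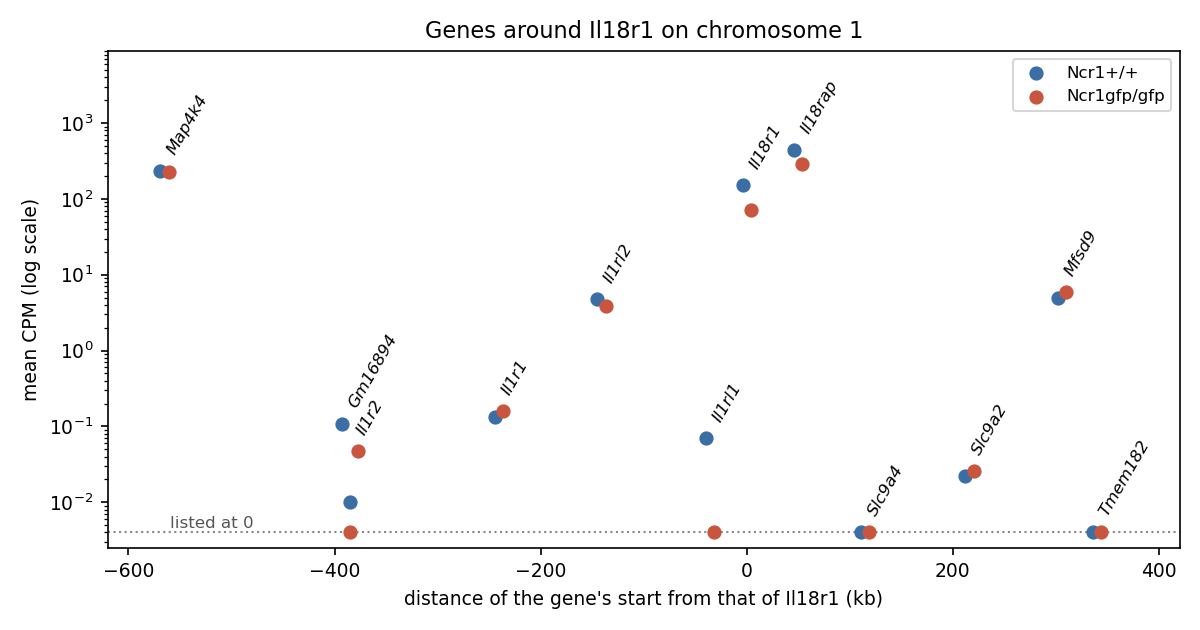
Mean CPM on a log scale (vertical axis) of the 12 genes that lie at least in part within 500 kb of Il18r1, against the distance of each gene's start from that of Il18r1 in kilobases (horizontal axis), in Ncr1+/+ (blue) and Ncr1gfp/gfp (red) ILC1s, drawn side by side. Points on the dotted line are listed at 0. The adjacent Il18r1 and Il18rap are separated by genotype, while Il1rl1 just upstream of them is near 0.

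The rest of the pathway was followed through lists of 90 further genes, of which 88 were in the table and 65 were tested. The lists were chosen with earlier results of these data known, so their shares describe the lists and are no test of the pathway. Among the 65 tested genes, 5 had an adjusted p under 0.05 and all 5 were lower, or 7.69% of those tested. Over all tested genes the shares at this threshold were 1.35% in either direction and 0.785% lower. The median log2 fold change of the 65 genes was -0.06, with 41 of them lower, beside 49.3% lower over all tested genes. The 5 genes were Il2ra, Pim1, Nfkbiz, Gadd45b and Furin. All of them belong to the list of genes taken here as induced by IL-18 in NK cells and ILC1s. These cells were not treated with IL-18, and whether IL-18 has a part in these levels was not tested.

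In that list, 16 of 19 tested genes had a negative log2 fold change, with a median of -0.25. Of the 19 genes 2 were called, both lower, against 0.733% of all tested genes called and 0.532% called lower. Il2ra, which encodes the α chain of the IL-2 receptor, stood at 42.1, 33.4, 46.7, 47.1 and 47.9 CPM in the Ncr1+/+ libraries and at 19.8, 16.3, 14.3, 20.9 and 20.8 CPM in the Ncr1gfp/gfp libraries, each in order of replicate. The genotypes did not overlap, and the log2 fold change of Il2ra was -1.24 (SE 0.13) with an adjusted p of 7.08e-06 by edgeR's quasi-likelihood test. Furin, which encodes a protease that processes precursor proteins, was at 206 to 304 CPM in Ncr1+/+ and 149 to 194 CPM in Ncr1gfp/gfp libraries, with a log2 fold change of -0.54 (SE 0.09) and an adjusted p of 0.00235 in the same test. Its fold change rose above the threshold of 0.7 without Ncr1+/+ replicate 4 (log2 fold change -0.44) or without Ncr1gfp/gfp replicate 3 (-0.51).

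The remaining 3 genes had an adjusted p under 0.05 but did not pass the fold threshold. Pim1, a kinase gene induced by cytokines, fell by 0.37 on the log2 scale with an adjusted p of 0.00186 by edgeR's quasi-likelihood test. Nfkbiz, which encodes the NF-κB cofactor IκBζ, fell by 0.47 with an adjusted p of 0.00393, and it is also the only gene of the 10 tested in the IKK arm with an adjusted p under 0.05. Gadd45b, which encodes an activator of the p38 and JNK kinases, fell by 0.51 with an adjusted p of 0.0139, and it is the only such gene of the 18 tested in the p38 and JNK arm. Without Ncr1+/+ replicate 3 the adjusted p of Gadd45b was 0.0567, and without Ncr1+/+ replicate 4 it was 0.0504. The most abundant gene of the induced list, the chemokine gene Ccl5, was at 1538 ± 91.6 CPM in Ncr1+/+ and 1563 ± 138 CPM in Ncr1gfp/gfp libraries (SD, n = 5 each), with a log2 fold change of 0.02.

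Between the receptor and these genes, none of the 12 tested genes from IRAK to TAK1 and none of the 9 tested genes of TIR adaptors and Toll-like receptors had an adjusted p under 0.05. Their most abundant members were Tab2, a TAK1 partner, at 792 ± 58.6 CPM in Ncr1+/+ and 788 ± 30.9 CPM in Ncr1gfp/gfp ILC1s, and Tlr12, a Toll-like receptor gene, at 63.6 ± 3.01 and 57.1 ± 4.02 CPM (SD, n = 5 each). In the other arms the most abundant genes were Tnfaip3, which encodes the NF-κB inhibitor A20, at 391 ± 101 and 283 ± 43.4 CPM, and Jun at 571 ± 212 and 435 ± 112 CPM, and the ranges of the genotypes overlapped for both. Of the ligands, antagonists and decoys only Il18bp, the secreted antagonist of IL-18, was tested, at 8.18 ± 2.51 CPM in Ncr1+/+ and 9.33 ± 1.41 CPM in Ncr1gfp/gfp ILC1s (log2 fold change 0.19, 95% interval -0.25 to 0.63). Transcripts of the ligands were scarce, with 10 of the 11 genes of this list in the table below the filter and 4 at 0 in every library.

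**Figure D5:**
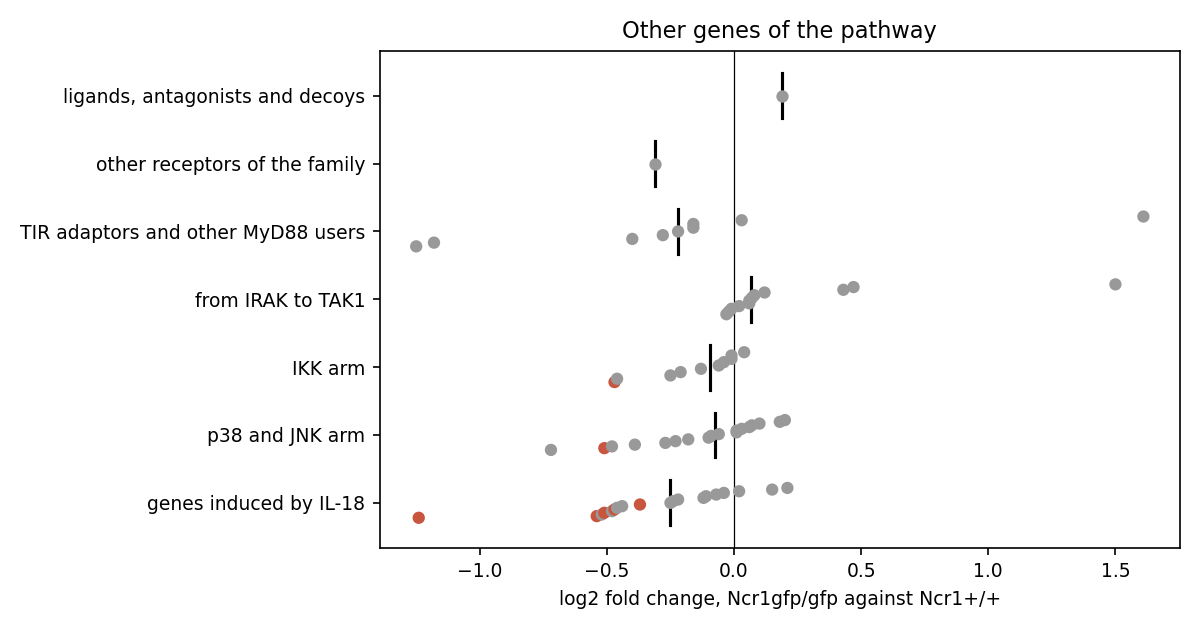
Log2 fold change of Ncr1gfp/gfp against Ncr1+/+ ILC1s (horizontal axis) for each tested gene of the 7 pathway lists, 1 list a row, with the median of each list as a black bar. Red points have an adjusted p under 0.05. They lie in the IKK arm, the p38 and JNK arm and the genes listed as induced by IL-18, where the median is -0.25. Nfkbiz and Gadd45b are drawn in more than 1 row.

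Some markers of NK cells and T cells differed between the genotypes as well, while others did not. These marker lists, too, were chosen with earlier results of these data known. The summed level of 14 NK cell markers was 3266 to 3637 CPM in Ncr1+/+ and 3979 to 5441 CPM in Ncr1gfp/gfp libraries, and without the most abundant of them, Gzma, it was 540.4 to 556 and 581 to 676 CPM. Of 12 tested NK markers 11 had a positive log2 fold change, where 49.3% of all tested genes were lower. For Prf1, Klrg1, Zeb2 and Klra9 it was only 0.00 to 0.03, and for S1pr5 it was -0.30. The 2 called NK markers were Itgam and Klra7, both higher, against 0.201% of all tested genes called higher. Itgam was at a mean of 49.4 CPM in Ncr1+/+ and 96.0 CPM in Ncr1gfp/gfp libraries. Gzma had a log2 fold change of 0.44 with an adjusted p of 0.00207 by edgeR's quasi-likelihood test, below the fold threshold, and Klra4 was at 0 in every library. The 10 T cell markers summed to 1137 to 1333 CPM in Ncr1+/+ and 1359 to 1568 CPM in Ncr1gfp/gfp libraries. Without Lck and Cd3g the ranges overlapped, with highest libraries of 71.5 and 119 CPM. Lck itself hardly differed, at means of 693 and 691 CPM. Cd3g was at means of 501 and 687 CPM, a log2 fold change of 0.45 that is below the fold threshold. Its adjusted p was 0.00169 by edgeR's quasi-likelihood test. Of 7 tested T cell markers Cd3e and Cd8a were called higher and Cd28 lower, against 0.201% of all tested genes called higher and 0.532% called lower. The calls of Cd8a and Cd28 were lost with DESeq2, at adjusted p-values of 0.0779 and 0.0533.

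The 11 ILC1 markers in the table summed to 6793 to 7420.1 CPM in Ncr1+/+ and 5348 to 5668 CPM in Ncr1gfp/gfp libraries, but without Ncr1 itself to 4857 to 5348 and 5206 to 5313 CPM, which overlap. Of the 11 tested, Il7r was called lower besides Ncr1. Itga1, by which both genotypes were gated, did not overlap between them and was higher in Ncr1gfp/gfp libraries, with a log2 fold change of 0.32 (SE 0.04) and an adjusted p of 0.000481 by edgeR's quasi-likelihood test, below the fold threshold. NK cells and T cells can carry the IL-18 receptor too, and the part of these markers in the lower Il18r1 and Il18rap was not tested. Without Ncr1+/+ replicate 1 and Ncr1gfp/gfp replicate 3, the libraries with more hepatocyte transcripts, the log2 fold change was -0.96 for Il18r1 and -0.52 for Il18rap, with adjusted p-values of 0.000912 and 0.0211 by edgeR's quasi-likelihood test.

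Summed markers of the remaining cell types overlapped between the genotypes. They were at 188 to 302 CPM for ILC2s, most of it Gata3 and Rora, at 5.14 to 9.75 CPM for mast cells and basophils, at 3.64 to 10.4 CPM for B cells, at 10.8 to 78.5 CPM for macrophages, at 0 to 12.5 CPM for neutrophils, at 1.81 to 74.5 CPM for hepatocytes and at 1.06 to 6.72 CPM for liver sinusoidal endothelium. None of the markers tested in these lists was called.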

How the data were processed

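RNA of liver ILC1s was amplified with the SMART-Seq v4 kit from 2 ng and sequenced from a single end for 51 cycles. The authors trimmed the reads with Trimmomatic and FASTP, mapped them with STAR to mm10 and counted them per gene with HTSeq, and the deposited values are these raw counts. The library kit does not mark strand, so reads of genes that overlap on opposite strands cannot be told apart. Of the genes of this family listed at the start, this overlap touches only Il1rap, with a gene of 3 counts. The methods give HTSeq with default settings, and whether reads were counted by strand could not be checked.

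Groups followed the labels. After filterByExpr had left 11463 genes, TMM factors were computed and the genotypes compared by edgeR's quasi-likelihood test (version 4.0.16, R 4.3.3), with p-values adjusted by Benjamini-Hochberg. As in the study's methods, a called gene had an adjusted p under 0.05 and a fold change that exceeded 1.5 or was less than 0.7. Standard errors and 95% intervals came from the F statistic. CPM and RPKM used TMM-scaled library sizes, and the ratio of Il18r1 to Il18rap used a prior count of 1. The fit was tested on simulated data. Alternatives were DESeq2 1.42.0, limma 3.58.1 (voom), edgeR's likelihood ratio test, other normalizations, filters and thresholds, a replicate block, and left-out libraries.

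Within each genotype the libraries differed beyond sampling noise (chi-square per gene 9.18 to 24.0 over 20 pairs) and none was a copy of another. Named were all 10 genes, Ncr1, family genes and nearest neighbours within 500 kb of Il18r1, pathway genes with an adjusted p under 0.05 or the highest CPM of their list, and markers called or at 0. The members and lists were chosen with earlier results of these data known. The marker sums without Ncr1, Gzma, Lck and Cd3g were chosen after their values were seen. So were the values of Itga1, Tbx21, Eomes, Gata3, Rora, Cd200r3, Cpa3, Mcpt8, Gzma, Prf1, Klrg1, Zeb2, Klra9, S1pr5, Lck and Cd3g. The older symbols of 3 listed genes were used.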

Additional observations from a re-analysis of the deposited data

Results flagged for a closer look

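Of 84 groups of 5 libraries examined for a single library far from the rest, 4 passed the limit, and chance passes about 1 in 20 such groups. Pim1 in Ncr1gfp/gfp replicate 2 was at 233 CPM, with the nearest library at 259 CPM. Ifng in Ncr1gfp/gfp replicate 4 was at 175 CPM, with the nearest at 123 CPM. The summed hepatocyte markers stood apart in Ncr1+/+ replicate 1, at 36.6 CPM with the nearest at 6.01 CPM, and in Ncr1gfp/gfp replicate 3, at 74.5 CPM with the nearest at 8.21 CPM. No value of the 8 tested receptor family genes was among them.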

How the results depend on the processing

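Il18r1 and Il18rap were called under every test, normalization, filter and left-out library tried, with log2 fold changes of -1.20 to -0.96 and -0.67 to -0.52. The weakest values of Il18rap were close to the lower fold threshold, which is -0.51 on this scale. With an absolute log2 fold change above 1 only 1 member, Il18r1, was called, and 2 were called (lowest 2, highest 2) when single libraries were left out. The number of called genes, 84, was 138 with the likelihood ratio test, 131 without a filter, 155 without a fold threshold, 23 with an absolute log2 fold change above 1, 126 with DESeq2, and 60 to 98 without single libraries. Pathway genes with an adjusted p under 0.05, of which there were 5, numbered 10 with DESeq2, 11 with the likelihood ratio test, 10 without a filter and 4 to 8 without single libraries. The sign of Il1rap turned under limma-voom (-0.10), the replicate block (-0.03) and without both libraries with more hepatocyte transcripts (-0.02), and without single libraries it was -0.19 to 0.15. Sigirr turned to -0.01 without those 2 libraries and was -0.04 to 0.05 without single ones. The cause of these moves was not tested.

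Same-numbered libraries did not deviate together (correlations -0.02 to 0.04, with 1 of 10 libraries closest to its own number), so the replicate block is given only as an alternative. It called 87 genes, and the ratio of Il18r1 to Il18rap kept a log2 difference of -0.52 with p = 0.0625 in a two-sided exact sign-flip test, the smallest that 5 pairs allow. Without single libraries that ratio's difference was -0.57 to -0.46. Without a length correction 6 of 10 members kept their place in the order of levels. Without a filter Il1rl1 and Il1r1 had adjusted p-values of 0.426 and 0.969 by edgeR's quasi-likelihood test. The ratio of Il1r1 to Il1rap was not run, since Il1r1 did not pass the filter. Cd8a and Cd28 lost their calls with DESeq2 (adjusted p 0.0779 and 0.0533) and in 4 and 3 of the fits without single libraries, with adjusted p-values up to 0.0956 and 0.0595. Without both libraries with more hepatocyte transcripts Cd28 had an adjusted p of 0.125 and Il7r of 0.0550.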

Other observations

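Some genes of the pathway lists did not pass the adjusted threshold and are given here as values, chosen after they were seen. Ifng, which encodes interferon-γ, the cytokine that IL-18 is best known to induce, was at 175 ± 28.0 CPM in Ncr1+/+ and 129 ± 27.0 CPM in Ncr1gfp/gfp libraries (SD, n = 5 each). The log2 fold change of Ifng was -0.44 (95% interval -0.69 to -0.20) with an adjusted p of 0.0683 by edgeR's quasi-likelihood test, and 0.00386 to 0.199 when single libraries were left out. Dusp1, which encodes a phosphatase that switches off p38 and JNK, was at 118 to 392 CPM in Ncr1+/+ and 128 to 172 CPM in Ncr1gfp/gfp libraries, with a log2 fold change of -0.72 and an adjusted p of 0.0685 in the same test, or 0.00111 to 0.192 without single libraries. Tlr4, another receptor that signals through MyD88, was at 4.63 to 9.70 CPM in Ncr1+/+ and 1.19 to 5.89 CPM in Ncr1gfp/gfp libraries, with a log2 fold change of -1.25 and an adjusted p of 0.0882, or 0.0113 to 0.247 without single libraries. Macrophages carry Tlr4, and the summed macrophage markers were at 16.4 to 78.5 CPM in Ncr1+/+ and 10.8 to 52.8 CPM in Ncr1gfp/gfp libraries. Their part in the level of Tlr4 was not tested. Rela, the gene of the NF-κB subunit p65, did not overlap between the genotypes, at 150.4 to 162 CPM in Ncr1+/+ and 123 to 143 CPM in Ncr1gfp/gfp libraries, with a log2 fold change of -0.21 and an adjusted p of 0.0994.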
